A study of Mus musculus with 6 samples.

Results

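Metallothioneins and zinc transporters were followed in mouse back skin through 7 genes, of 57010 in the deposited table. These were chosen by symbol for their known role in zinc handling, with earlier results of these data known. The 7 genes were the metallothioneins Mt1, Mt2, Mt3 and Mt4, the zinc-sensing transcription factor gene Mtf1, the exporter gene Slc30a1 (ZnT1) and the importer gene Slc39a14 (ZIP14). Each symbol matched 1 row, namely ENSMUSG00000031765 (Mt1), ENSMUSG00000031762 (Mt2), ENSMUSG00000031760 (Mt3), ENSMUSG00000031757 (Mt4), ENSMUSG00000028890 (Mtf1), ENSMUSG00000037434 (Slc30a1) and ENSMUSG00000022094 (Slc39a14). The study had 2 groups of 3 RNA sequencing libraries. MOD mice, labelled only as experiment type, received 62.5 mg of imiquimod (IMQ), an activator of Toll-like receptor 7 that inflames mouse skin much as psoriasis does, applied daily to the shaved back for 6 days. CON mice, labelled wild type, received none, and whether they were shaved is not stated. The design text describes atropine and zoledronic acid injections before blood was drawn, without separating the groups. Strain, sex and age are not stated here. Nothing in the labels says that each library came from its own animal, so p-values reflect library-to-library spread, part of which may be technical.

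Metallothioneins are small cytosolic proteins that hold zinc and copper ions through cysteines. MTF-1, the protein of Mtf1, binds DNA at metal response elements when free zinc rises and switches on Mt1, Mt2 and Slc30a1, so these genes are used as readouts of cellular zinc. Mt1 and Mt2 are also induced by glucocorticoids and by inflammatory cytokines, Mt3 is best known from brain, and Mt4 belongs to differentiating stratified epithelium. SLC30 proteins move zinc out of the cytosol, and SLC39 proteins move it in.

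The coding sequences show what the metallothioneins share and how far reads could be told apart. They were taken from GENCODE M21 transcripts (GRCm38) for the 3 metallothioneins of high level in control skin, with cysteine codons in capitals and the stop codon left out.
Mt1: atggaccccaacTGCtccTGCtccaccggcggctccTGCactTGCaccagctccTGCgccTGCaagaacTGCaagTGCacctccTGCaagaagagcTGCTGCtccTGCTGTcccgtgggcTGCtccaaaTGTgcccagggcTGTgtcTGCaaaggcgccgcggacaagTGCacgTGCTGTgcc
Mt2: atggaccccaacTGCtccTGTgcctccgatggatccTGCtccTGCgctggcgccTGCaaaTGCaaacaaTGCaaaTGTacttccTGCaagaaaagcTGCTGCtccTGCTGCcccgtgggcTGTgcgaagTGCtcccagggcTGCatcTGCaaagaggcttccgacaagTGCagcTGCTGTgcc
Mt4: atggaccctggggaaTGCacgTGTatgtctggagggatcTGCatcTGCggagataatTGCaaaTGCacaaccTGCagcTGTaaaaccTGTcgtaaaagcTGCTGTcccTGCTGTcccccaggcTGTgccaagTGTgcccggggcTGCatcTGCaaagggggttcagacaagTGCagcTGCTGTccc
Each holds 20 cysteine codons, among 61 codons in Mt1, 61 in Mt2 and 62 in Mt4, and Mt3 holds 20 among 68. TGC and TGT both encode cysteine. TGT was used for 8 of the 20 in Mt4 and for 4 of the 20 in each of the others. The coding sequences of Mt1 and Mt2 were identical at 79.2% of aligned positions, those of Mt2 and Mt4 at 72.7% and those of Mt1 and Mt4 at 66.3%. All 4 metallothionein genes lie on chromosome 8, where Mt4, Mt3, Mt2 and Mt1 follow each other on the same strand in the RefSeq annotation of GRCm38.p6.

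Promoters are shown for the 3 members best known as MTF-1 targets. The sequences are the 250 bases before the annotated start in RefSeq (GRCm38.p6, all on the + strand), at chr8:94178839-94179088 for Mt1, chr8:94172368-94172617 for Mt2 and chr1:191906531-191906780 for Slc30a1. Capitals mark matches to the core of the metal response element, searched as TGCACNC and TGCGCNC on both strands.
Mt1 promoter: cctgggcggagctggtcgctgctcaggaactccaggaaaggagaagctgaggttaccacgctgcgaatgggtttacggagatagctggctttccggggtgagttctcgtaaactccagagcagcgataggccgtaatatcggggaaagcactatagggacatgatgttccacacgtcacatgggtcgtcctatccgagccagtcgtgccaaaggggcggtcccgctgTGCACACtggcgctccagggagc
Mt2 promoter: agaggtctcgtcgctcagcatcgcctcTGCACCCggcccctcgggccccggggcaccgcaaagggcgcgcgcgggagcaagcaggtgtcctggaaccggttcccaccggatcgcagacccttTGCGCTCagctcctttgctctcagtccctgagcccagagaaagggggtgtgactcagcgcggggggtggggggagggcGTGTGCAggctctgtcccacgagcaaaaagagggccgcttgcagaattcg
Slc30a1 promoter: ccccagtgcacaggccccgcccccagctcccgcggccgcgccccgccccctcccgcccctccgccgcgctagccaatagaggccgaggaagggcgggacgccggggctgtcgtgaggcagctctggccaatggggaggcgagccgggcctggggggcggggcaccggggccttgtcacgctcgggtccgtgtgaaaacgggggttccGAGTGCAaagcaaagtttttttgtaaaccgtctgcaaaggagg
Mt2 had 3 matches, Mt1, Slc30a1 and Mt4 had 1 each, and Mt3 and Mtf1 had 0. Of 32851 promoter windows of the same length, 21.4% held at least 1 match and 1.26% at least 3. Windows were found for 6 of the 7 members, all but Slc39a14. The windows depend on the annotated start, because another annotated transcript begins 129 bases further downstream for Mt1 and 196 bases for Mt2. Bases between such starts were not searched, and a match is a description of letters, not of a bound site.

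The values are TPM (a length-scaled transcript abundance), in which the authors scaled read numbers by gene length and by library total. TPM keeps no sequencing depth, so depth is unknown and no counting error is given. The libraries listed 23311 to 24647 genes above 0. CON libraries were not alike. H2-Ea, an MHC class II gene, stood at 0 TPM in all MOD libraries and in CON 2, against 194 TPM in CON 1 and 162 TPM in CON 3. Member differences are therefore also given from a fit with a term for that division of the libraries (the split term), in which the difference rests on MOD against CON 2 alone. The spread then comes from the MOD libraries and from CON 1 against CON 3, and CON 2 is assumed to vary like them. Some inbred mouse strains make no H2-Ea mRNA, strain is not given here, and a strain difference between libraries was not tested. Genes were tested with limma on log2(TPM + 1) if they reached 1 TPM in at least 3 of the 6 libraries, and "rose" and "fell" mark an adjusted p below 0.05 over the 15323 genes tested. In bulk skin, fewer cells of a type and less RNA per cell cannot be told apart.

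Mt1, Mt2, Mt4, Mtf1, Slc30a1 and Slc39a14 were lower in imiquimod-treated skin. All 7 members met the expression filter, with libraries of both groups at 1 TPM or more, and 6 fell, 0 rose and 1, Mt3, did not pass. Among all genes tested, 36.1% fell and 12.5% rose. The members were chosen with earlier results known, so their count and median are descriptions, not independent support. The MOD and CON libraries did not overlap for the same 6 members, where 44.0% of genes tested were without overlap and lower in MOD. With the split term, and so with CON 2 as the lone control, the same 6 members were past the threshold, against 17.9% of all genes lower in MOD. The median log2 difference of the 7 members was -1.61, and that of all genes tested was -0.31. Differences are also given below relative to that median.

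**Figure D1:**
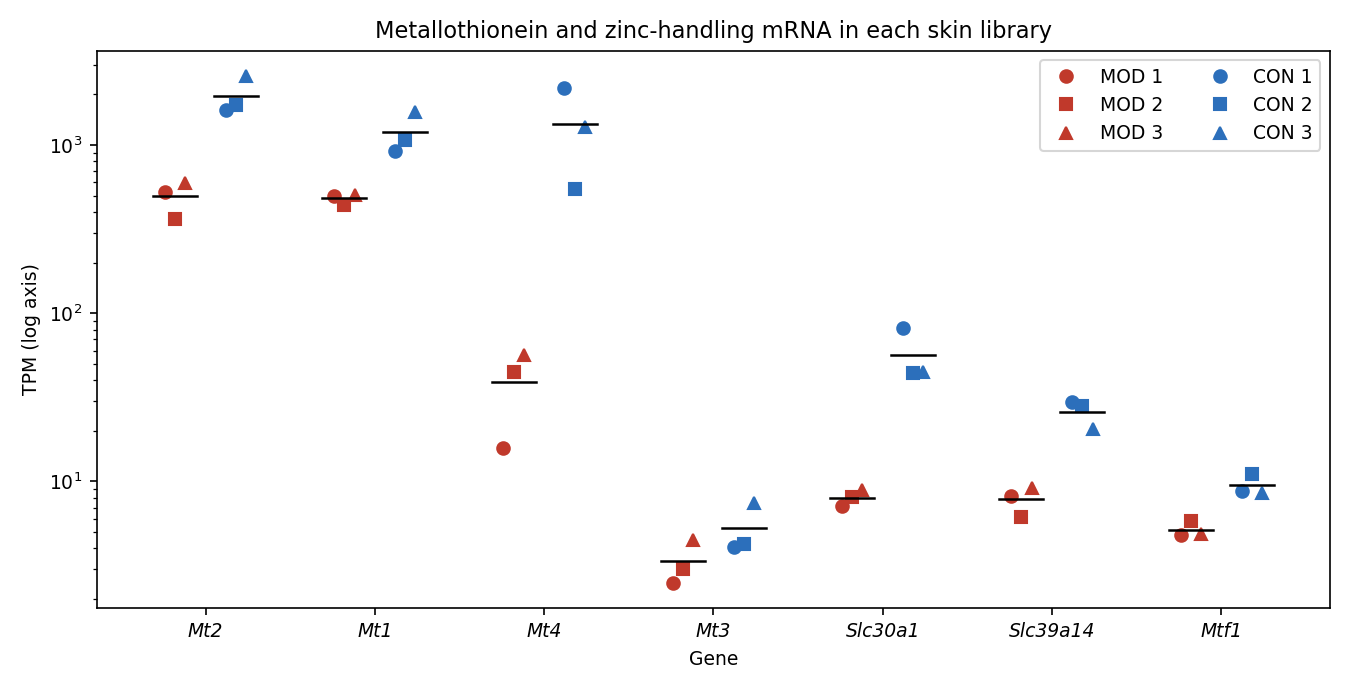
TPM of the 7 members (log axis) in each library, with MOD in red left of CON in blue, marker shape for replicate number and a black line at the mean of each group. The groups are apart for every gene except Mt3, and Mt4 shows the widest gap (15.9 to 56.3 TPM in MOD, 545 to 2188 TPM in CON).

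By mean TPM, Mt2 was the most abundant member in both groups. Within single libraries, Mt1 was above Mt2 in MOD 2, and Mt4 was above Mt2 in CON 1. Mt2 stood at 523, 364 and 596 TPM in MOD 1 to 3, against 1608, 1726 and 2566 TPM in CON 1 to 3. Each MOD library lay below each CON library, and the means were 494 ± 118 TPM in MOD and 1966 ± 523 TPM in CON (SD, n = 3 each). Mt2 fell by 1.99 on the log2(TPM + 1) scale (SE 0.26, limma adjusted p = 0.0022), or by 1.83 with the split term (adjusted p = 0.028). Of all genes tested, 2.96% had a difference as low or lower.

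Mt1, its neighbour and closest relative, stood at 499.8, 437 and 507 TPM in MOD, against 923, 1076 and 1579.9 TPM in CON. The MOD libraries lay close together, and CON 3 was the highest library for Mt1 as for Mt2. The means were 481 ± 38.7 TPM in MOD and 1193 ± 344 TPM in CON (SD, n = 3 each), and the difference in log2 was -1.27 (SE 0.22, limma adjusted p = 0.0047). With the split term it was -1.16, close to the threshold (adjusted p = 0.049).

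Mt4, the metallothionein of stratified epithelium, had the largest difference of the members. It stood at 15.9, 44.8 and 56.3 TPM in MOD, against 2188, 545 and 1273 TPM in CON. The lowest control, CON 2, was still far above the highest MOD library, and CON 1 was the highest control. The CON mean was 34.3 times the MOD mean, and the log2 difference was -5.02 (SE 0.62, limma adjusted p = 0.0020). Only 0.47% of genes tested had a difference as low or lower. Fitted with the split term, it was -3.95 (adjusted p = 0.021).

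Mt3 was low throughout, at 2.51, 3.03 and 4.51 TPM in MOD and 4.10, 4.27 and 7.49 TPM in CON. The groups overlapped, since MOD 3 lay above CON 1 and CON 2. The log2 difference was -0.52 (SE 0.27, limma adjusted p = 0.15), or -0.30 with the split term (adjusted p = 0.58).

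The balance among the metallothioneins was compared within each library. Mt1 to Mt4 together took 0.104, 0.0849 and 0.116% of all TPM in MOD, against 0.472, 0.335 and 0.543% in CON. Mt2 TPM divided by Mt1 TPM was 1.05, 0.833 and 1.17 in MOD, against 1.74, 1.60 and 1.62 in CON. Mt4 divided by Mt1 was 0.0317, 0.102 and 0.111 in MOD, against 2.37, 0.507 and 0.806 in CON. These ratios are free of library scaling. For each of the 3 quantities the groups did not overlap, and a two-sided exact permutation test gave p = 0.1, which is the smallest that 3 libraries against 3 allow (0.1 after Benjamini-Hochberg adjustment over the 3 tests). The authors' table lists lengths of 633 bases for Mt1 and 388 bases for Mt2, so the level of Mt2 relative to Mt1 within a library depends on the transcripts assumed. Mt2 is overlapped by an antisense gene, Gm45774, which shares 212 bases with it on the opposite strand and stood at 0.96, 0.41 and 0.58 TPM in MOD and 1.42, 2.30 and 3.61 TPM in CON. Strand use in counting is not stated, so reads of this pair cannot be told apart. Gm45774 was picked out after its values were seen.

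**Figure D2:**
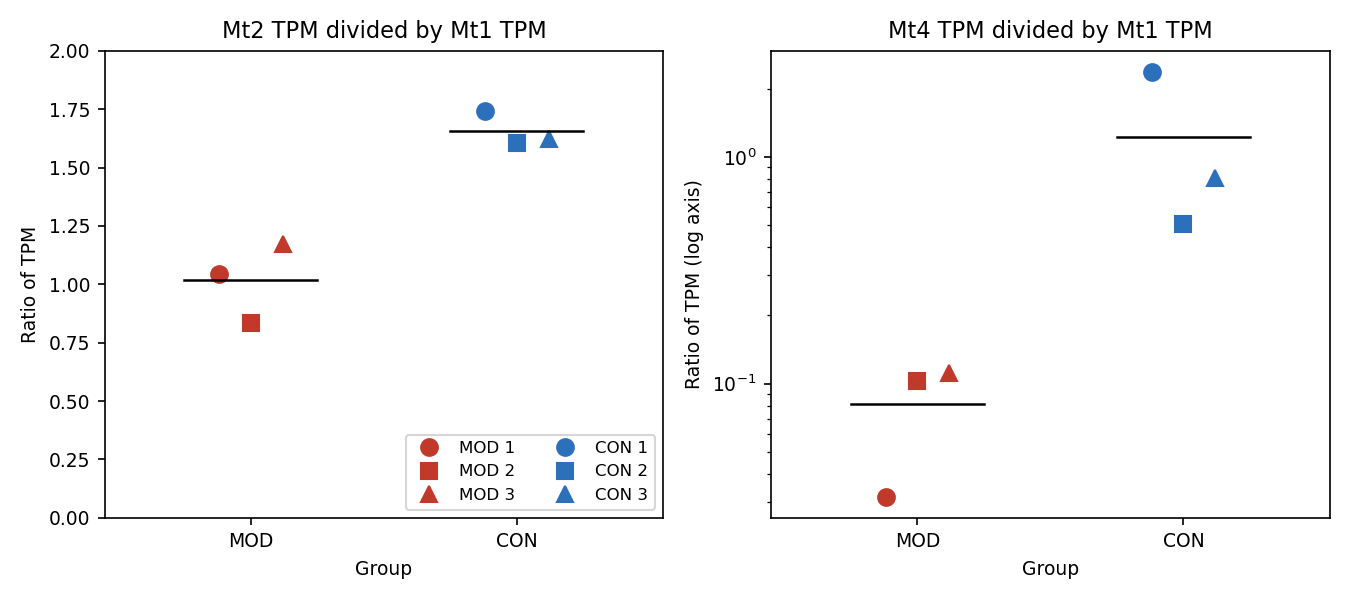
Ratios of TPM within each library for Mt2 over Mt1 (left, linear axis) and Mt4 over Mt1 (right, log axis), MOD in red and CON in blue, with black lines at group means. Mt2 over Mt1 lies between 0.833 and 1.17 in MOD and between 1.60 and 1.74 in CON, and Mt4 over Mt1 lies at or below 0.111 in MOD and at or above 0.507 in CON.

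Mtf1, which encodes the factor that drives metallothionein transcription, stood at 4.81, 5.79 and 4.87 TPM in MOD, against 8.81, 11.1 and 8.56 TPM in CON. The groups did not overlap and their libraries lay close together. Its log2 difference of -0.76 (SE 0.16, limma adjusted p = 0.0092) was the smallest among the members that fell, and 23.6% of genes tested had a difference as low or lower. With the split term it was -0.97 (adjusted p = 0.031). Relative to the median of all genes it was -0.45.

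Slc30a1, the exporter of the plasma membrane and an MTF-1 target, stood at 7.16, 8.04 and 8.86 TPM in MOD, against 81.6, 44.0 and 44.6 TPM in CON. CON 1 was highest, and the other controls were still well above each MOD library. The CON mean was 7.07 times the MOD mean, and the difference in log2 was -2.62 (SE 0.25, limma adjusted p = 0.0012), or -2.32 with the split term (adjusted p = 0.017). Only 1.49% of genes tested were as low or lower.

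Slc39a14, an importer of zinc that also carries iron and manganese and is induced by interleukin-6 in mouse liver, stood at 8.17, 6.19 and 9.10 TPM in MOD, against 29.5, 27.9 and 20.4 TPM in CON. The groups did not overlap, and the lowest control, CON 3, was above the highest MOD library. The means were 7.82 ± 1.49 TPM in MOD and 25.9 ± 4.83 TPM in CON (SD, n = 3 each), and the log2 difference was -1.61 (SE 0.20, limma adjusted p = 0.0021), or -1.73 with the split term (adjusted p = 0.020).

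The order of levels was the same in both groups but for Mt4 and Mt1. In MOD the order by mean TPM was Mt2, Mt1, Mt4, Slc30a1, Slc39a14, Mtf1 and Mt3, and in CON it was Mt2, Mt4, Mt1, Slc30a1, Slc39a14, Mtf1 and Mt3. Ranges overlapped between Mt2 and Mt1 and between Slc30a1 and Slc39a14 in MOD, and between Mt2 and Mt4 and between Mt4 and Mt1 in CON. Other neighbours in the order had separate ranges within a group.

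**Figure D3:**
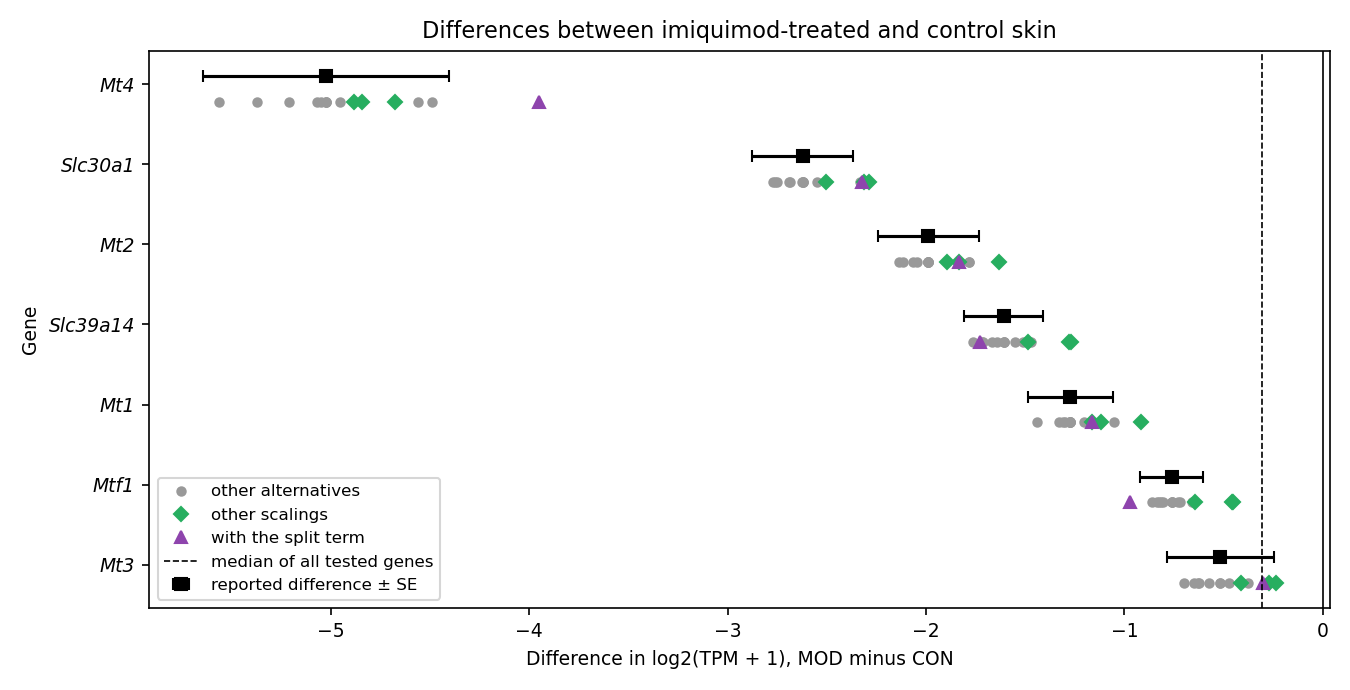
Difference in log2(TPM + 1), MOD minus CON, for the 7 members. Black squares with bars are the reported difference and its SE, and the smaller markers below them are alternative fits and scalings. The dashed line is the median of all genes tested (-0.31). Differences run from -5.02 for Mt4 to -0.52 for Mt3, and all alternative values are below 0.

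The 6 falls passed the threshold under each of the 3 other scalings tried. Relative to the median of all genes under the same scaling, Mt4 lay between -4.80 and -4.68, Slc30a1 between -2.32 and -2.27, Mt2 between -1.85 and -1.64, Slc39a14 between -1.31 and -1.23, Mt1 between -1.12 and -0.92 and Mtf1 between -0.47 and -0.41, over TPM and 3 other scalings. Mt3 lay between -0.24 and -0.21.

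Among the other members of both transporter families, 6 of 10 tested importers and 0 of 5 tested exporters fell. Of all genes tested, 36.1% fell, and 1 of the 6 importers, Slc39a2, met the filter through CON only. The contrast between the families was not tested. Of 9 other SLC30 exporter genes 5 were tested, and 0 rose and 0 fell in limma (0 had an unadjusted p below 0.05), with a median log2 difference of -0.32, near that of all genes. Slc30a5, which loads zinc into the secretory pathway, stood at 19.3, 20.7 and 24.8 TPM in MOD and at 24.96, 30.1 and 27.1 TPM in CON (log2 difference -0.33, adjusted p = 0.099). Slc30a9 stood at 20.6, 18.7 and 20.2 TPM in MOD and at 17.3, 17.9 and 20.3 TPM in CON (0.10, adjusted p = 0.55). It passed, as higher in MOD, when scaled by median of ratios or by quantiles (0.042 in both), and Slc30a4 passed, as lower, without CON 3 (adjusted p = 0.011). Whether Slc30a1 differs from the rest of its family was not tested.

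Of 13 other SLC39 importer genes 10 were tested, and 6 fell (36.1% of all genes did), 0 rose and 4 did not pass, with a median of -1.005. One of the 6, Slc39a2, met the filter through CON only, with every MOD library under 1 TPM, so its fall is given as values and not as support. Fewer of the importers passed with the split term, as over all genes. Slc39a10, a plasma membrane importer, stood at 7.82, 6.80 and 11.6 TPM in MOD, against 169, 140 and 72.5 TPM in CON (log2 difference -3.66, adjusted p = 0.0011). Slc39a8, which carries zinc and manganese, stood at 3.06, 4.07 and 4.08 TPM in MOD, against 79.5, 57.4 and 12.95 TPM in CON (-3.10, adjusted p = 0.0076). Slc39a6, which can form a complex with the product of Slc39a10, stood at 8.24, 8.46 and 9.68 TPM in MOD, against 68.5, 55.7 and 31.2 TPM in CON (-2.36, adjusted p = 0.00185). In all 3 genes CON 1 was highest and CON 3 lowest, and the groups did not overlap. Slc39a2 was low, at 0.68 to 0.76 TPM in MOD and 1.78 to 7.45 TPM in CON (-1.58, adjusted p = 0.016). That call did not hold with MOD 1 left out (adjusted p = 0.053) or with the split term (0.073). Slc39a11 and Slc39a9 also fell (-1.22 and -0.79). The call of Slc39a11 was lost without the filter on low values, without each of MOD 1, MOD 3, CON 2 and CON 3, under median-of-ratios and quantile scaling and with the split term (adjusted p from 0.053 to 0.070). Slc39a13 stood at 21.6, 21.99 and 32.6 TPM in MOD and at 13.2, 20.2 and 18.2 TPM in CON (0.53, adjusted p = 0.088), and passed, as higher, when scaled in the 3 other ways (0.015 to 0.0497). Slc39a13 was outside the rule for named genes and was picked out after its values were seen, as were Slc39a9, Slc39a11 and Slc30a4.

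**Figure D4:**
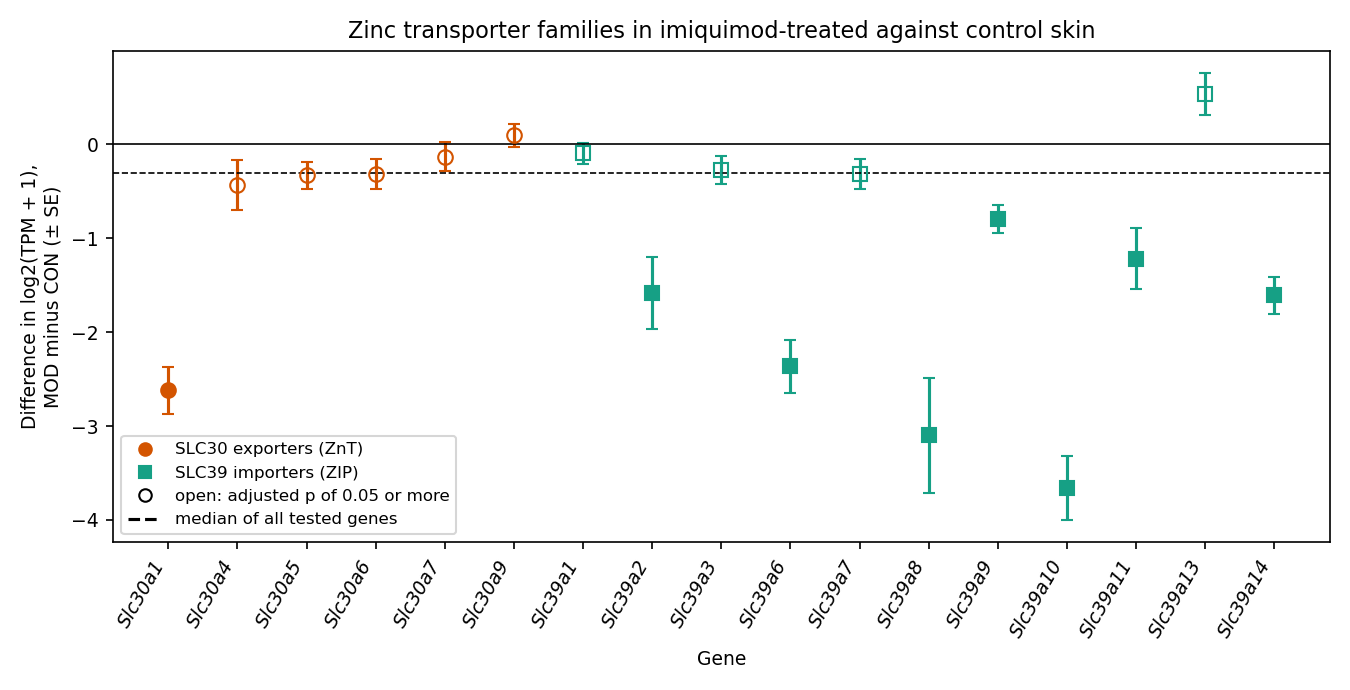
Difference in log2(TPM + 1), MOD minus CON, with SE, for the tested SLC30 exporters (circles) and SLC39 importers (squares), including Slc30a1 and Slc39a14. Filled markers had an adjusted p below 0.05 and the dashed line is the median of all genes tested. Slc30a1 is the only filled exporter (-2.62), and importers reach -3.66 at Slc39a10.

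Metallothioneins also hold copper, and copper-handling genes were listed for comparison. Of 9 tested 1, Cp, rose and 4 fell, shares near the 12.5% and 36.1% of all genes, with a median of -0.18. With the split term fewer of them fell, as over all genes. The importer Slc31a1 stood at 15.6, 18.03 and 15.8 TPM in MOD, against 49.5, 40.9 and 37.6 TPM in CON (log2 difference -1.32, adjusted p = 0.0016). The copper chaperone Atox1 stood at 175, 216 and 225 TPM in MOD, against 405, 446 and 515 TPM in CON (-1.15, adjusted p = 0.0025). Both genes were lower in every MOD library than in any control. The copper pump gene Atp7a was low, at 1.53 to 2.11 TPM in MOD and 2.81 to 11.2 TPM in CON (-1.34, adjusted p = 0.033). Its call was lost without each of MOD 1, MOD 2, MOD 3, CON 1 and CON 2, under median-of-ratios and quantile scaling, without the filter and with the split term (adjusted p from 0.058 to 0.10). Cp, which encodes the copper-carrying ferroxidase ceruloplasmin, stood at 115, 111 and 56.5 TPM in MOD, against 18.8, 27.5 and 12.4 TPM in CON (2.21, adjusted p = 0.0043, or 1.67 and 0.047 with the split term).

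Of 12 tested iron-handling genes 5 rose and 3 fell, with a median of 0.03. Of all genes, 12.5% rose and 36.1% fell. With the split term fewer passed in either direction, in this list as over all genes. Cp, already counted with copper, was among the 5 iron-handling genes that rose. Lcn2, a binder of bacterial siderophores, stood at 1068, 711 and 148 TPM in MOD, against 3.24, 12.5 and 20.3 TPM in CON (log2 difference 5.50, adjusted p = 0.0037). Hmox1, heme oxygenase, stood at 146, 124 and 88.5 TPM in MOD, against 41.5, 48.7 and 20.2 TPM in CON (1.73, adjusted p = 0.0079, and 0.085 with the split term). The iron exporter gene Slc40a1 stood at 6.01, 5.94 and 7.08 TPM in MOD, against 74.9, 30.3 and 13.3 TPM in CON (-2.14, adjusted p = 0.018). That call did not hold with MOD 1 left out (0.059), with MOD 2 left out (0.053), with no filter (0.051) or with the split term (0.11). Of the 3 listed genes of zinc-binding S100 proteins, the calgranulin genes S100a8 and S100a9 rose (log2 differences 6.86 and 6.43). S100a7a had the opposite sign and did not pass (-2.52, limma adjusted p = 0.057). It stood at 1.06, 0.55 and 1.49 TPM in MOD and at 37.6, 14.7 and 1.49 TPM in CON. It passed, as lower, with a pseudocount of 0.1 (adjusted p = 0.0497) and without CON 3 (0.0036). S100a8 was at 3915, 1403 and 3078 TPM in MOD, above Mt2 in each MOD library, and at 23.3, 35.2 and 11.3 TPM in CON, below Mt2 in each.

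Markers of hair were lower in MOD, and most markers of neutrophils, macrophages and skeletal muscle were higher. Their part in the results was not tested. Beside the counts below, 12.5% of all genes tested rose and 36.1% fell. For 7 matched markers of hair shaft and inner root sheath, summed TPM was 0.66 to 2.03 in MOD, against 12715, 5628 and 2615 in CON 1, 2 and 3. All 7 passed as lower in MOD, but each was under 1 TPM in every MOD library and so met the filter through CON only. The order of the controls in this sum, with CON 1 highest and CON 3 lowest, is that of 17.5% of all genes tested. It is that of Slc39a14 among the members, and of Slc39a10, Slc39a8, Slc39a6, Slc39a2, Slc30a4, Slc31a1, Atp7a, Slc40a1, S100a7a, Gclc and Txnrd1 among the other listed genes with a name in the text. It is not that of Mt1, Mt2, Mt3, Mt4, Mtf1 or Slc30a1. For Slc30a1 this rests on a small margin, since CON 2 and CON 3 were nearly level (43.95 and 44.61 TPM). Of the 7 hair markers themselves, 5 had the order of their sum, and Krt35 and Krt31 did not. Krt31, picked out after its values were seen, stood at 799.9, 85.1 and 362 TPM in CON 1, 2 and 3. That is the order of Mt4 and, by the small margin above, of Slc30a1. The share of all genes with that order was not counted. Krt35 stood at 606, 318 and 699 TPM in CON 1, 2 and 3, an order that no member had. What these orders mean was not tested. Of 7 suprabasal keratinocyte markers 0 rose and 1 fell, and their sums overlapped (2399 to 3719 in MOD and 936 to 5619 in CON). In CON 1, 2 and 3 the suprabasal sum was 2469, 5619 and 936, and Mt4 stood at 2188, 545 and 1273 TPM. A relation between them was not tested. Of 6 basal keratinocyte markers 1 rose and 2 fell, shares near those of all genes (sums of 4846 to 5130 in MOD and 3144 to 4841 in CON). All 7 tested neutrophil markers, of 8 matched, rose (sums of 2492 to 7756 in MOD and 24.2 to 78.6 in CON, with Retnlg at 0 in all CON libraries), of which 3, Retnlg, Cxcr2 and Mmp8, met the filter through MOD only. Most of each sum came from S100a8 and S100a9, already counted as calgranulins. Csf3r was far lower, at 11.2 to 14.6 TPM in MOD and 1.13 to 1.43 TPM in CON. Of 8 macrophage and monocyte markers 7 rose (2480.4 to 3593 in MOD and 337 to 1192 in CON). Of 7 skeletal muscle markers 6 rose, and their sums were 17686 to 27048 in MOD and 2561 to 8941 in CON. Adipocyte markers did not pass (0 of 6, sums of 2473 to 5509 in MOD and 2887 to 3376 in CON, and 0 with an unadjusted p below 0.05 in limma). Of 6 fibroblast markers 1 rose, a share near that of all genes, and 0 fell (4242 to 6672 in MOD and 3348 to 4998 in CON).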

How the data were processed

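The authors deposited 1 table of TPM values per gene for 6 skin libraries, 3 MOD and 3 CON, with gene names and gene lengths in bases. The submitters' processing notes name GRCm39 as the build. RNA isolated with TRIzol and freed of DNA went into SMARTER mRNA-Seq libraries, per the labels' protocols. No aligner, gene annotation or quantifier was named in the sources used here. Depth is unknown from TPM, so no counting interval was computed. Libraries are numbered as in the sample titles (CON 2 and CON 3 are the columns CON3 and CON4), and 0 sample columns were left unmapped. Any pair of libraries shared identical values at 0.0653 to 1.02% of tested genes.

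Values were tested as log2(TPM + 1) in limma 3.58.1 under R 4.3.3 (lmFit and trended eBayes, two-sided), for the 15323 genes reaching 1 TPM in at least 3 libraries, with Benjamini-Hochberg adjustment and a threshold of 0.05. The log2(TPM + 1) scale understates the change of low genes. The procedure was tested on simulated data. The alternatives were pseudocounts of 0.1 and 0.5, no filter or 5 TPM, 3 other scalings, leaving out each library, the split term and a replicate block. Ratios were tested by exact permutation in SciPy 1.17.1. Promoters came from RefSeq and coding sequences from GENCODE M21, both GRCm38, and no coordinates of the deposited values were used. The gene lists were SLC30 exporters, SLC39 importers, copper, iron, NRF2, glucocorticoid, zinc-binding S100 genes and 8 sets of cell markers. The members and these lists were chosen with earlier results of these data known. Named genes were all members, up to 4 genes a list that passed with the biggest change, the biggest opposite change, the 2 of highest TPM if none passed, and the 3 genes most like Mt2 and Mt4.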

Additional observations from a re-analysis of the deposited data

How the results depend on the processing

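Over 15 alternatives, 6 or 7 members were lower in MOD and 0 higher. Mt1, Mt2, Mt4, Mtf1, Slc30a1 and Slc39a14 passed under all 15, with the highest adjusted p at 0.049 for Mt1 (split term) and 0.040 for Mtf1 (without MOD 1). Mt3 passed only with the replicate block (-0.52, adjusted p = 0.049), in a range up to 0.58, and was not tested at 5 TPM. The same-numbered libraries did not deviate together (r = 0.005, 0.069 and 0.066 across genes for numbers 1, 2 and 3, and MOD 1 correlated best with CON 3), so the numbers were not taken as pairs. The replicate block gave 1914 genes higher and 5343 lower, against 1914 and 5538 without it. Median-of-ratios scaling gave 3097 higher and 2868 lower, quantile normalization gave 3177 lower, and the split term gave 667 higher and 2747 lower. Leaving out 1 library gave 1303 to 2025 genes higher and 3559 to 5487 lower, the fewest of both without MOD 1. The median of all genes was 0.00 with median-of-ratios scaling, -0.04 with quantile normalization and -0.18 without the 20 most abundant genes. The cause of these shifts in counts was not tested. Among the lists, importers lower ranged from 4 to 6, copper genes lower from 2 to 4, iron genes lower from 0 to 3 (0 without MOD 2) and higher from 3 to 6. Unknown depth limits what can be said of Mt3 and other low genes.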

Other observations

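Metallothioneins are also known targets of glucocorticoids and of oxidative stress, and genes of both responses were listed for comparison. Of 10 glucocorticoid-induced genes 4 rose (12.5% of all genes did) and 0 fell (36.1% did), with a median log2 difference of 0.56. Whether glucocorticoids bear on Mt1 and Mt2 here was not tested. With the split term fewer genes of this list rose, as over all genes. Tsc22d3, a glucocorticoid-induced leucine zipper, stood at 153, 195 and 250 TPM in MOD, against 50.2, 121 and 73.9 TPM in CON (1.34, limma adjusted p = 0.016). It did not pass with MOD 3 left out (0.052) or with the split term (0.17). Zbtb16 stood at 10.7, 11.7 and 6.80 TPM in MOD, against 1.72, 4.16 and 2.13 TPM in CON (1.57, adjusted p = 0.0068, and 0.068 with the split term). Klf9, a transcription factor gene, stood at 33.4, 35.6 and 34.6 TPM in MOD, against 13.9, 25.4 and 13.4 TPM in CON (0.996, adjusted p = 0.016, and 0.11 with the split term). Lcn2, described above with iron, is the other gene of this list that rose. It is the gene of the list that rose with the split term.

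Of 10 targets of NRF2, the factor of the oxidative stress response, 1 rose and 4 fell, shares near the 12.5% and 36.1% of all genes, with a median of -0.55. Fewer passed in either direction with the split term, as over all genes, and the number lower ranged from 2 to 5 over the alternatives. Gclc, the catalytic subunit of glutathione synthesis, stood at 7.01, 7.68 and 7.82 TPM in MOD, against 38.9, 38.4 and 24.6 TPM in CON (-2.01, adjusted p = 0.0013). Txnrd1, thioredoxin reductase, stood at 25.1, 25.8 and 26.8 TPM in MOD, against 93.2, 66.4 and 53.9 TPM in CON (-1.39, adjusted p = 0.0031). Both kept their calls with the split term (adjusted p = 0.012 and 0.035). Osgin1 stood at 4.14 to 6.91 TPM in MOD and 9.06 to 10.8 TPM in CON (-0.73, adjusted p = 0.021), a call lost without MOD 1 (0.059), without CON 2 (0.057), without the filter (0.050), under median-of-ratios and quantile scaling (0.13 and 0.15) and with the split term (0.073). Hmox1, which rose, is described above with iron.

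Likeness was taken over 11502 tested genes whose larger group mean was 5 TPM or more, leaving out the members and genes without a name or with a Gm or Rik name. Those most like Mt2 over the 6 libraries were B9d1 (Pearson r = 0.9995), Pigw (0.997) and Chd8 (0.997). Those most like Mt4 were Jpt1 (0.998), Mgat5 (0.998) and Pigt (0.998). These correlations are descriptions over 6 libraries in 2 separate groups, and 935 genes for Mt2 and 1066 for Mt4 had an r above 0.95. B9d1 stood at 9.26, 7.19 and 10.7 TPM in MOD and at 23.2, 23.5 and 32.8 TPM in CON. Jpt1 stood at 77.9, 96.8 and 103 TPM in MOD and at 208, 170 and 195 TPM in CON.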
